A study of Homo sapiens with 6 samples.

Results

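Chromatin accessibility at NFYA, NFYB and NFYC, the 3 genes that encode the subunits of nuclear factor Y (NF-Y), was examined in ATAC-seq peak lists of HLF, an established cell line from a human liver cancer. Members were all called peaks within 1 kb of any transcription start site (TSS) of these genes, in the gene bodies or within 10 kb of them, by GENCODE release 44 on hg38. Peak regions of the 6 libraries that overlapped were merged into sites, and 22 of 166021 sites belonged to the NF-Y genes, with 4 at NFYA, 6 at NFYB and 12 at NFYC. Cells were treated with 5 μM SNDX-5613, a small molecule that blocks the interaction of menin with MLL1, or with DMSO as vehicle, and each group held 3 libraries that carried the same batch label. The labels give 24 h of treatment and the study's methods give 4 days, so the duration behind these values is uncertain. All libraries came from 1 cell line, and the methods describe each replicate as a dish that was divided between treatment and control. In ATAC-seq the Tn5 transposase tags DNA that nucleosomes leave exposed, and the comparison asked whether the chromatin of the NF-Y genes themselves differed after menin inhibition, since the study examined NF-Y as a partner of menin.

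NF-Y is a trimeric transcription factor that recognises the CCAAT box, an element common in promoters of housekeeping, cell cycle and metabolic genes. NF-YB and NF-YC carry histone-fold domains and pair with each other much as core histones do. NF-YA then joins the pair and makes the sequence-specific contacts with CCAAT, so that all subunits are needed for DNA binding.

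The libraries differed in depth, which was read from the peak lists. The median summit pileup, the number of fragments stacked at a summit as solved from the peak caller's fold and p, was 59 to 79 in 5 libraries and 12 in SNDX-5613 replicate 3, over the 33405 sites called in all 6 libraries. That library had 40568 peak regions against 88026 to 113675 in the others. The lowest pileup of a called site was 3 in SNDX-5613 replicate 3, or 0.25 times its median, against 0.0759 to 0.102 times the median elsewhere, so weak sites were not detectable there. As a check of cell identity, 0 to 2 of the hepatocyte markers had a promoter peak in a library: ALB, APOA1 and HNF4A had none in any library, and TTR and SERPINA1 had one in some. By contrast, 5 of 5 mesenchymal markers had one in every library.

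RefSeq promoter sequences (GRCh38.p14) were matched for 2 of the 3 genes, NFYA and NFYC, and were shown for the promoters that carried a peak in all 6 libraries, because NF-Y binds CCAAT. Each is printed 5′ to 3′ up to the base before the first annotated TSS, with CCAAT on either strand in capitals. NFYA is chr6:41072724-41072973, the first NFYC promoter is chr1:40691454-40691647 and the intragenic NFYC promoter is chr1:40709116-40709356, all on the plus strand.
NFYA promoter: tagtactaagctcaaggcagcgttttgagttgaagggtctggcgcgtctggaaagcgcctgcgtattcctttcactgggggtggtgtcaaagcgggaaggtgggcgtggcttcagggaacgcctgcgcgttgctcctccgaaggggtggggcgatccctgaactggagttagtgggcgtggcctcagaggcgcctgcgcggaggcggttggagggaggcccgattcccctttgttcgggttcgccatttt
NFYC first promoter: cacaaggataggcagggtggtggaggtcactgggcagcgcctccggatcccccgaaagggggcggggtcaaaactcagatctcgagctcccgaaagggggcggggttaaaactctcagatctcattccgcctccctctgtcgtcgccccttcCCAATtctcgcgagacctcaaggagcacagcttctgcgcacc
NFYC intragenic promoter: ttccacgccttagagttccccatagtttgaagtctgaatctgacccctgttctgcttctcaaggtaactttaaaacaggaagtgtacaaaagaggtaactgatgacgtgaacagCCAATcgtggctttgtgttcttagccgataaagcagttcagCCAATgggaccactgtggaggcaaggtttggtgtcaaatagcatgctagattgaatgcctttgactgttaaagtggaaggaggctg

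The first NFYC promoter held 1 CCAAT on the plus strand, whose first base lay 42 bp before the first TSS, and a GGGCGG element (GC box) at 2 positions. The intragenic NFYC promoter held 2 plus-strand CCAAT boxes, 127 and 86 bp before its first TSS, and no GC box. A further CCAAT on the minus strand lay 9 bp past that TSS, beyond the printed stretch. Its strongest summit, at 40709249, fell between the plus-strand boxes, 19 bp past the first base of one and 22 bp before the other. The printed NFYA stretch held no CCAAT, but 3 matches followed the NFYA start at 45, 72 and 125 bp, the first of them on the minus strand, and all 3 lay within 100 bp of the NFYA summit. Within 100 bp of the summit, at least 1 CCAAT was found at 31.3% of the 14697 promoter sites called in all 6 libraries, at least 2 at 11.6% and at least 3 at 3.56%, so that NFYA belonged to the smallest of these classes. The NFYA window also held a match to the NRF1 palindrome, found in 5.78% of 35116 promoter windows of 300 bases. The E-box CACGTG, present in 7.26% of all promoter windows on either strand, was found in none of the 3. An ETS element (CCGGAAG, 10.3% of windows) was also found in none of the 3, and neither was TATAAA (11.5% of windows). The GC box was present in 45% of all promoter windows. These matches describe the letters and not occupancy.

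All 3 genes had a peak at their first promoter in all 6 libraries, and NFYC had a second such promoter inside the gene. The NFYA site, chr6:41071865-41073436, spanned a bidirectional promoter: OARD1, which encodes an ADP-ribose hydrolase, is transcribed from the opposite strand with a TSS at 41072614, and the NFYA TSS lies at 41072974. The NFYB site, chr12:104137986-104138596, covered the first exon of NFYB, and the NFYC site, chr1:40691441-40692448, covered the NFYC start and that of NFYC-AS1, an antisense long noncoding RNA, at 40692074. The intragenic NFYC site, chr1:40708794-40709672, lay 17601 bp into the gene, at the TSS of the transcript NFYC-203 (40709357), and was intronic to the longer NFYC transcripts.

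**Figure D1:**
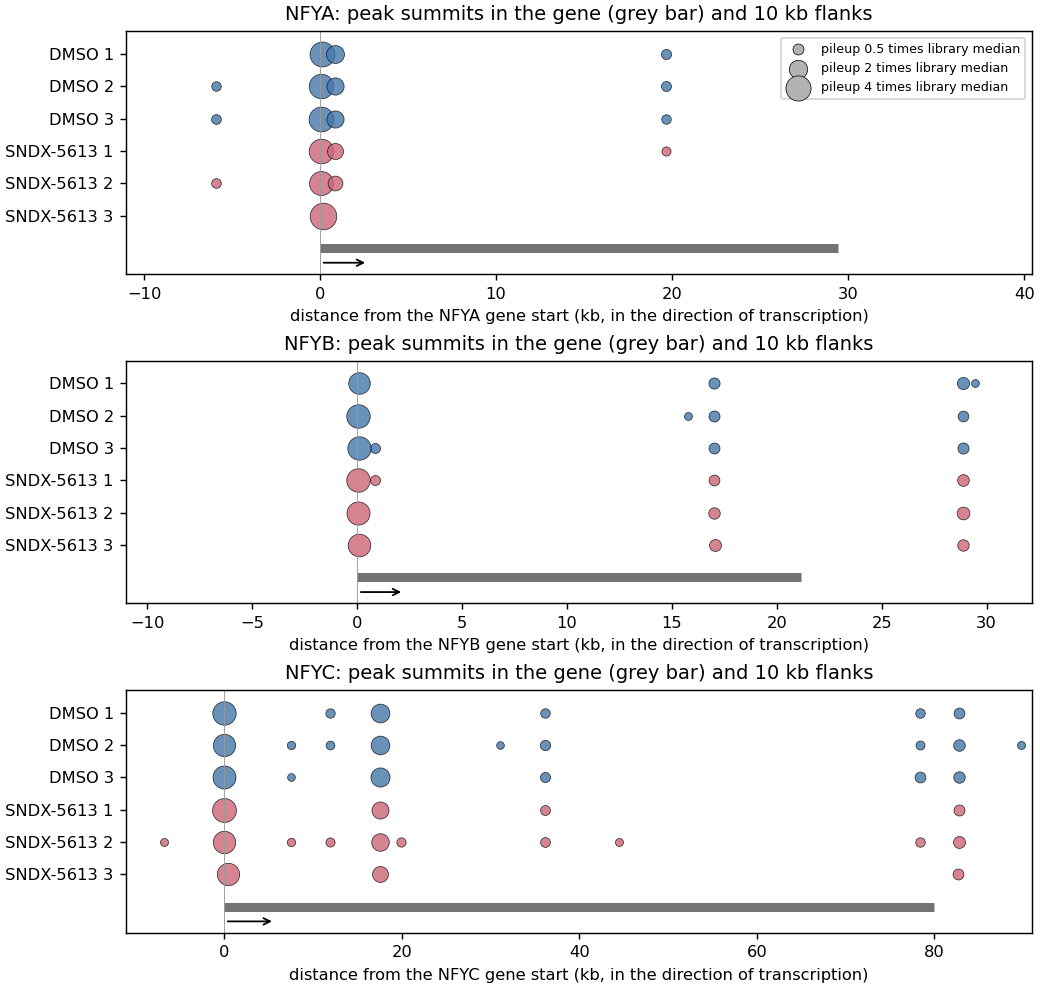
Peak summits at NFYA, NFYB and NFYC in the 3 DMSO (blue) and 3 SNDX-5613 (red) libraries. The x axis is the distance from the gene start in kb along the direction of transcription, the grey bar is the gene, and circle area rises with the summit pileup over the library median. The first promoters and the intragenic NFYC promoter are present in all 6 libraries, and SNDX-5613 replicate 3 shows 7 summits in all.

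NFYA had the highest pileup of the 4 promoters. Its summit pileup was 231, 298 and 291 in DMSO replicates 1 to 3 and 268, 263 and 54 in SNDX-5613 replicates 1 to 3, and divided by the library median it was 3.92, 3.77, 3.88, 3.83, 3.60 and 4.50 in the same order. With a mean of 3.92 ± 0.306 (SD, n = 6), it exceeded 94.75% of the 14697 promoter sites. NFYB followed, at 2.86, 3.44 and 3.41 times the median in DMSO and 3.46, 3.33 and 3.17 in SNDX-5613 (mean 3.28 ± 0.230, SD, n = 6), above 86.62% of promoter sites. The first NFYC promoter reached 3.42, 3.08 and 3.29 in DMSO and 3.57, 3.11 and 3.08 in SNDX-5613 (mean 3.26 ± 0.206, SD, n = 6), above 86.36% of promoter sites. NFYA was higher than NFYB in 6 of 6 libraries, while NFYB and the first NFYC promoter differed by less than their spread. The intragenic NFYC promoter was lower than the other 3 in every library, at 2.09, 2.08 and 2.19 in DMSO and 1.67, 1.79 and 1.42 in SNDX-5613, and stood above 48.62% of promoter sites.

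**Figure D2:**
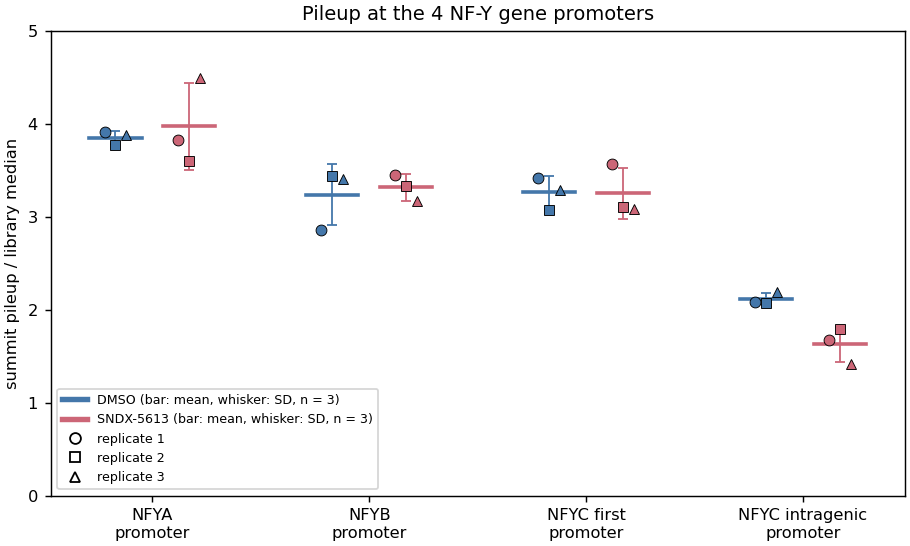
Summit pileup divided by the library median at the 4 NF-Y gene promoters, with 1 symbol for each library, bars for group means and whiskers for SD (n = 3). The DMSO and SNDX-5613 values overlap at the NFYA, NFYB and first NFYC promoters, and at the intragenic NFYC promoter all 3 SNDX-5613 values lie below the DMSO values.

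The order of the promoters changed with the measure. Fold is the pileup over the local background after the peak caller adds a small constant to both. By fold, NFYA had 7.93, 8.50 and 7.82 in DMSO and 8.65, 7.27 and 7.77 in SNDX-5613, the lowest of the 4 promoters in every library. The local background at NFYA was 7.50 times the library median on average, higher than at 99.23% of promoter sites. How far the NFYA peak itself raised that background was not tested, so the value may partly restate the peak. Since fold divides by the local background, NFYA exceeded only 14.73% of promoter sites by fold rank. Among the 33405 sites, its fold rank percentiles were 17.4, 16.55 and 17.9 in DMSO. Those of SNDX-5613 replicates 1 to 3 were 18.75, 15.2 and 54.6, so the shallow library stood apart. The NFYA site was also wide, with a median region of 1445 bp that exceeded 98.52% of promoter sites, whose median was 685.5 bp. NFYB regions had a median of 597 bp, those of the first NFYC promoter 910 bp and those of the intragenic NFYC promoter 642 bp. The intragenic NFYC promoter, with a fold of 19.5, 22.1 and 21.0 in DMSO and 19.8, 18.9 and 10.4 in SNDX-5613, stood above 84.49% of promoter sites by fold rank, on a local background 1.27 times the library median.

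The NFYA and first NFYC promoters, each shared with a gene on the opposite strand, held a summit on either side. At NFYA, the strongest NFYA-side summit lay 43 to 143 bp past the NFYA TSS. The strongest OARD1-side summit lay 73 to 180 bp past the OARD1 TSS at 41072614, which is only 1 of 16 annotated OARD1 starts. The NFYA side exceeded the OARD1 side in all 6 libraries, with pileup ratios of 1.21, 1.11 and 1.29 in DMSO and 1.05, 1.18 and 1.08 in SNDX-5613 (two-sided exact permutation p = 0.2). At NFYC, the ratio of the NFYC side to the NFYC-AS1 side was 1.295, 1.125 and 1.065 in DMSO and 1.41, 1.24 and 0.946 in SNDX-5613 (two-sided exact permutation p = 1). SNDX-5613 replicate 3, the shallow library, was the only one whose stronger NFYC summit was on the NFYC-AS1 side. The NFYC-AS1-side summits, at 40692125 to 40692159, also lay inside an untranslated exon stretch of NFYC, 40692008 to 40692200. The NFYC ratio therefore compares positions and does not divide the signal between the genes.

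Whether menin inhibition changed accessibility at the NF-Y genes was tested at the 7 sites called in all 6 libraries, by the log2 fold in limma and by the rank of −log10 p within each library. With limma, 0 of the 7 sites passed an adjusted p of 0.05, against 0% of all 33405 sites (0 called). A fit that called no site could not single out a member, and it does not show that accessibility was unchanged. Sites missing from SNDX-5613 replicate 3 were outside it. The study tested read counts with DESeq2 and reported regions that gained and regions that lost accessibility after this treatment. At an unadjusted p of 0.05, limma called 2374 sites, or 7.11%, and 0 of the 7. A fit of the same model to the solved pileups called 419 sites, or 1.25%, and again 0 of the 7. At an unadjusted p of 0.05 that fit called 4545 sites, or 13.6%, and 1 of the 7, the intragenic NFYC promoter (limma unadjusted p = 0.0169). Ranks of the groups did not overlap at 8.08% of sites with SNDX-5613 lower and at 8.54% with SNDX-5613 higher. Of the 7 sites, 1 was in the first class, the intragenic NFYC promoter, and 0 were in the second. With 3 libraries against 3, the smallest two-sided exact p is 0.1, so no rank comparison could reach 0.05.

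NFYA ranked at percentiles 84.8, 83.5 and 84.1 in DMSO and 85.9, 82.5 and 90.4 in SNDX-5613, and the groups overlapped. Its means were 84.1 ± 0.639 and 86.25 ± 3.94 (SD, n = 3 each, exact permutation p = 0.5), and its log2 fold differed by 0.24 ± 0.22 (SE, limma adjusted p = 0.776). NFYB, which encodes a histone-fold subunit, ranked at 89.5, 95.7 and 95.7 in DMSO and 96.35, 96.3 and 93.7 in SNDX-5613. These groups also overlapped, with means of 93.6 ± 3.54 and 95.45 ± 1.504 (SD, n = 3 each, exact permutation p = 0.5) and a log2 fold difference of 0.20 ± 0.12 (SE, limma adjusted p = 0.728). The first NFYC promoter ranked at 93.7, 87.5 and 90.4 in DMSO and 95.2, 91.0 and 89.5 in SNDX-5613, with means of 90.5 ± 3.10 and 91.9 ± 2.97 (SD, n = 3 each, exact permutation p = 0.6). Its log2 fold differed by 0.24 ± 0.14 (SE, limma adjusted p = 0.725). Ranked by fold instead, the 3 promoters differed by 12.2, 10.3 and 14.9 points, in the order above (exact permutation p = 0.6, 0.1 and 0.2). By fold rank the NFYB groups did not overlap, at 69.7, 83.3 and 84.8 in DMSO and 88.0, 87.4 and 93.45 in SNDX-5613. They still overlapped at NFYA and the first NFYC promoter, and the share of all sites that separate by fold rank was not counted. No direction can be given for these 3 promoters, since their differences turned negative without normalisation or when ranked among all regions of a library.

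**Figure D3:**
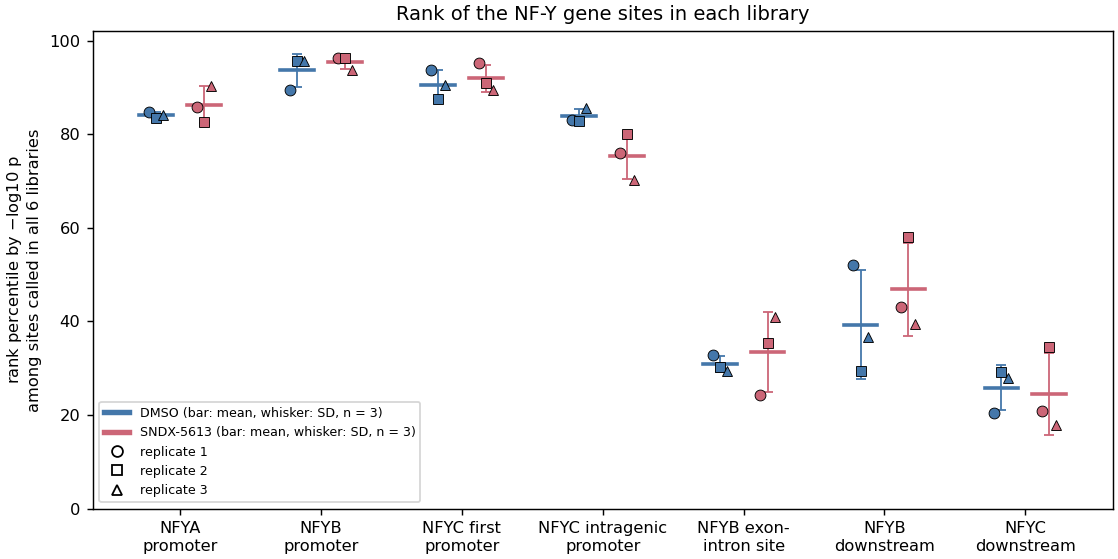
Rank percentile by −log10 p among the 33405 sites called in all 6 libraries, for the 7 NF-Y gene sites, with 1 symbol for each library, bars for group means and whiskers for SD (n = 3). The 4 promoters rank above 70 in every library and the 3 other sites below 60, and the groups separate only at the intragenic NFYC promoter.

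At the intragenic NFYC promoter, every SNDX-5613 library was below every DMSO library in rank by −log10 p, pileup over the library median and region width, but not in fold. For rank, 8.08% of all sites did the same. The share was not counted for pileup or width, and all these measures come from the same peak. Fold is no separate measure, since it divides the same pileup by a local background. How far the peak itself entered that background was not tested. It ranked at 83.05, 82.8 and 85.55 in DMSO and at 76.0, 80.05 and 70.2 in SNDX-5613, means of 83.8 ± 1.52 and 75.4 ± 4.965 (SD, n = 3 each), a difference of -8.38 points (exact permutation p = 0.1, Benjamini-Hochberg adjusted p = 0.602 over all sites). Pileup over the library median averaged 2.12 ± 0.0615 in DMSO and 1.63 ± 0.193 in SNDX-5613 (SD, n = 3 each, exact permutation p = 0.1). The limma difference was -0.33 ± 0.13 (SE) for log2 pileup, with an adjusted p = 0.246, and -0.11 ± 0.12 (SE) for log2 fold, with an adjusted p = 0.797. By fold the groups overlapped, with 19.8 in SNDX-5613 replicate 1 above 19.5 in DMSO replicate 1, and the rank by fold differed by -5.4 points (exact permutation p = 0.4). The called region was 670, 647 and 879 bp wide in DMSO and 629, 637 and 133 bp in SNDX-5613, a mean difference of -266 bp (exact permutation p = 0.1). SNDX-5613 replicate 3 weighed on these values: its pileup of 17 at this summit has a 95% Poisson interval of 9.90 to 27.2, and without that library the rank difference was -3.22 points and the width difference -99 bp. The ranks of the groups still did not overlap without it, a comparison of fewer libraries whose share over all sites was not counted.

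The 2 NFYC promoters were then set against each other within each library, which takes the scale of the library out of the ratio but not its counting error. The intragenic promoter had 0.609, 0.675 and 0.664 times the pileup of the first promoter in DMSO, and 0.468, 0.577 and 0.459 times in SNDX-5613. In SNDX-5613 replicate 3 the strongest summit of the first promoter was on the NFYC-AS1 side, with a pileup of 37 against 35 on the NFYC side. The other libraries used the NFYC side. All SNDX-5613 ratios were below all DMSO ratios, with means of 0.501 ± 0.0656 and 0.649 ± 0.0354 (SD, n = 3 each) and a log2 difference of -0.38. The ratio uses the same pileups as the comparison above and was chosen after they were known, so it is a description and no separate support.

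**Figure D4:**
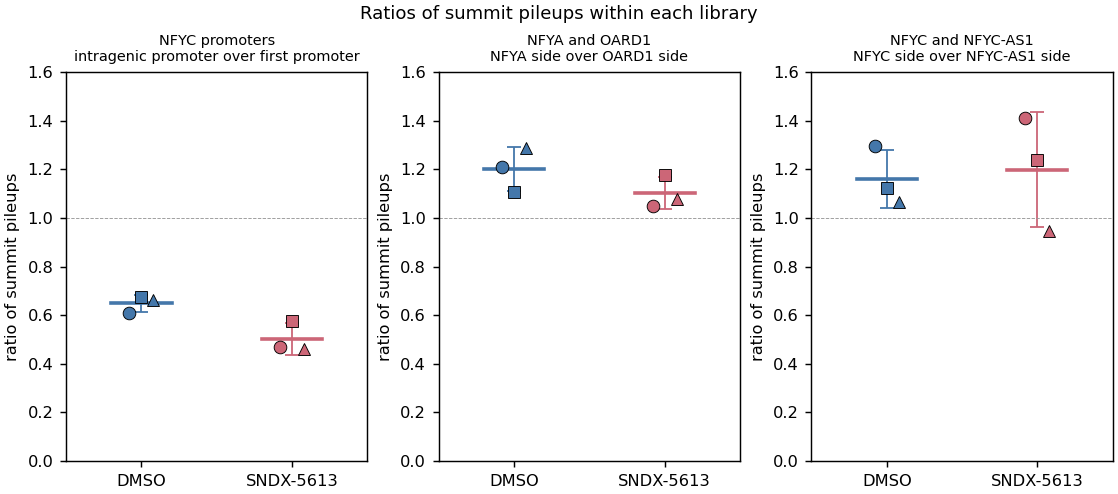
Ratios of summit pileups within each library, on axes from 0, for the intragenic over the first NFYC promoter and for both sides of the NFYA and NFYC promoters, with bars for group means and whiskers for SD (n = 3). Only the ratio of the NFYC promoters separates the groups, at 0.609 to 0.675 in DMSO and 0.459 to 0.577 in SNDX-5613.

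Outside promoters, NFYB kept a site at an exon and NFYB and NFYC each kept a site downstream of the gene. The NFYB site at chr12:104121086-104121471, 17015 bp into the gene, covered an 82 bp coding exon (104121240 to 104121321), and its strongest summit was in the intron 14 bp from it. The 201 bases around that summit, chr12:104121126-104121326, are shown on the minus strand, the sense of NFYB, with CCAAT on the other strand in capitals as the site's match, and below it the NFYA intron site chr6:41092555-41092693, which had no CCAAT in 139 bases.
NFYB exon-intron site: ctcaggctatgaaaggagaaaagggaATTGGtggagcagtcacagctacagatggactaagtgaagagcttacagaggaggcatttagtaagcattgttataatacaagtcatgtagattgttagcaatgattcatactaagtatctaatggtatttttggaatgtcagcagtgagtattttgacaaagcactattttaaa
NFYA intron site: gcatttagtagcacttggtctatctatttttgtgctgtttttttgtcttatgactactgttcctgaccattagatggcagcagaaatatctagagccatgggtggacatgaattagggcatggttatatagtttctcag

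The NFYB exon-intron site ranked at 32.85, 30.2 and 29.5 in DMSO and 24.2, 35.3 and 40.9 in SNDX-5613 (exact permutation p = 0.7). The site downstream of NFYB, chr12:104109114-104109578, ranked at 52.0, 29.3 and 36.6 in DMSO and 43.2, 58.1 and 39.4 in SNDX-5613 (exact permutation p = 0.4). The site downstream of NFYC, chr1:40774122-40774731, ranked at 20.4, 29.2 and 27.95 in DMSO and 20.9, 34.5 and 18.0 in SNDX-5613 (exact permutation p = 0.9). The groups overlapped at all 3, and their pileups were 0.468 to 0.795 times the library median.

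NFYA had 2 weaker sites in its introns, which a longer OARD1 transcript also spans on the opposite strand. The site at chr6:41073678-41073943, 867 bp from the gene start, had a pileup of 1.88, 1.71 and 1.69 times the library median in DMSO and 1.44 and 1.18 in SNDX-5613 replicates 1 and 2, and was not called in SNDX-5613 replicate 3, a pattern of calls shared by 16.01% of all sites. Its log2 fold differed by -0.36 ± 0.18 (SE, limma adjusted p = 0.545) over the 5 libraries without SNDX-5613 replicate 3. The NFYA intron site, 19650 bp into the gene, was called in 3 of 3 DMSO libraries with folds of 12.02, 13.02 and 9.81, in SNDX-5613 replicate 1 with a fold of 8.41, and in neither of the other SNDX-5613 libraries. Of all sites, 2.12% had this pattern. Its pileups were 23, 29, 23 and 18, or 0.257 to 0.390 times the library median. The lowest pileup of any called site was 0.25 times the median in SNDX-5613 replicate 3 and 0.0959 times in SNDX-5613 replicate 2. The cause of the missing calls was not tested.

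Of the 22 sites, 7 were called in all 6 libraries, 8 in 2 to 5 and 7 in 1 library. Sites called in each of the 3 DMSO libraries but in 0 SNDX-5613 libraries made up 1.18% of all sites and the reverse 0.147%, and the NF-Y genes had 0 of either kind. The NF-Y genes held 13, 17 and 14 peak regions in DMSO and 11, 16 and 7 in SNDX-5613, means of 14.7 ± 2.08 and 11.3 ± 4.51 (SD, n = 3 each, exact permutation p = 0.4). The 7 regions of SNDX-5613 replicate 3 were the 7 shared sites. When each list was limited to its 40568 strongest regions, the counts were 9, 10 and 10 in DMSO and 8, 7 and 7 in SNDX-5613, which did not overlap (exact permutation p = 0.1). SNDX-5613 replicate 3 entered with its whole list. How often other loci separate in this way was not counted, so no loss particular to the NF-Y genes can be read from it. In that comparison NFYA had 3, 3 and 2 regions in DMSO and 2, 1 and 1 in SNDX-5613, NFYB had 3 in every library, and NFYC had 3, 4 and 5 in DMSO and 3 in each SNDX-5613 library, so that the groups overlapped for each gene alone.

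NFYC is the longest of the 3 genes, at 79956 bp, and held the most sites. Besides its promoters it had 6 gene body sites, called in 1 to 5 libraries, and the site called in 5, chr1:40727577-40728122, had folds of 8.34, 12.1 and 10.51 in DMSO and 9.68 and 8.355 in SNDX-5613 replicates 1 and 2. Its log2 fold differed by -0.13 ± 0.18 (SE, limma adjusted p = 0.868) without SNDX-5613 replicate 3. The microRNA genes MIR30E and MIR30C1, which lie within NFYC, were 15.5 and 12.5 kb from the nearest called site.

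Genes around NF-Y in function were given the same tests. Among 12 genes of other histone-fold proteins, such as the TFIID subunits and DR1, 12 had a promoter site in all 6 libraries, limma called 0 and the rank groups overlapped at all 12, with a median log2 fold difference of 0.08 against 0.02 over all sites. Among 16 factors that act beside NF-Y at CCAAT promoters, 16 had such a site, limma called 0 and 2 had lower ranks in all SNDX-5613 libraries, USF1 (81.0 to 83.5 against 83.7 to 89.1) and SREBF1 (94.0 to 98.2 against 98.4 to 99.0), with a median log2 fold difference of 0.12. These 2 of 16 stand against 8.08% of all sites with lower ranks and 8.54% with higher ranks, and with so few genes they are no result about the list. Of 9 other genes named for CCAAT boxes or half-sites, 8 had such a site and NFIC did not. Limma called 0 of these, CEBPG ranked higher (97.6 to 99.1 against 94.6 to 96.2) and NFIX lower (9.65 to 38.3 against 41.1 to 48.1) in all SNDX-5613 libraries, and the median difference was 0.13. With 1 of 8 in each direction against the same 8.54% and 8.08%, these too are no result about the list. The fit to the pileups also called 0 genes in each list.

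The promoters whose 6 rank percentiles were nearest to those of NFYA belonged to EPG5, SLC2A11 and PGK1, at Euclidean distances of 2.31, 2.43 and 2.47 percentile points among 12688 protein-coding genes. Nearest to NFYB were MYL11 and TBC1D10B, which share a site, at 1.96 and SWT1 at 2.48. Nearest to the first NFYC promoter were MAPK8IP3, TTC14 and BPHL, at 2.19, 3.46 and 3.73.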

How the data were processed

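Peak lists of 6 ATAC-seq libraries (3 DMSO, 3 SNDX-5613) and 2 consensus sets were used. Per the study's methods, the authors used Bowtie2 for alignment, Picard to mark duplicates and RMSPC to build consensus sets. MACS2 summit calling was stated for a related assay with the same pipeline. The submitters' processing notes list Trim Galore 0.6.7, Bowtie2 2.3.4.1, Picard 2.20.0, SAMtools, deepTools 3.5.4 and MACS2. No source states a Tn5 shift, whether marked duplicates were removed, or filters on mapping quality or blacklisted regions. Unfiltered duplicates would raise pileups, and a missing shift of a few bases moves summits little.

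The deposited lists give for each summit the fold, −log10 p and −log10 q, called by the authors in each library separately. Fold was taken as the ratio of pileup over local background with a constant added to both. The deposited score column was not used, nor was the combined p of the consensus sets. Read counts were not analysed here, so the authors' DESeq2 model was not fitted. In hg38, 0 summits lay past a chromosome end, and 35116 of 35116 promoter sequences of the RefSeq table equalled hg38 at their coordinates.

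Summits of a region were merged and the strongest kept. Regions overlapping by at least 1 bp on chromosomes 1 to 22, X and Y formed sites. Pileups were solved as whole numbers from fold and p, to within 0.01 of −log10 p, which succeeded for 100% of sites (3.94% to 4.75% with p shuffled). Log2 folds, quantile normalised, were tested in limma 3.58.1 (R 4.3.3) across all 33405 sites with Benjamini-Hochberg adjustment, and other values by exact two-sided permutation of library labels in Python 3.11.15. The procedure was tested on simulated data. The simulation for limma gave every site of a library the same spread and planted changes larger than those at the members. It therefore does not show how the fit performs at weak sites of the shallow library or for small changes. The pileup fit and the ratio of NFYC promoters were added after seeing the data, and the members and lists were chosen with earlier results of these data known. Named genes were the members, genes overlapping or neighbouring their sites, and the 3 protein-coding genes nearest to each first promoter by distance over 6 rank percentiles. Where a gene of a list had ranks that did not overlap, it was named after its values were seen. The result for 1 marker gene is not reported here. Library intervals cover counting error only, and p-values measure the spread between dishes of 1 cell line. Alternatives were other normalisations, array weights, log2 of −log10 p, −log10 q of at least 3, windows of 250 bp on each side of summits, sites in at least 5 libraries, ranks by fold or among all regions, equal numbers of regions, 5 kb flanks, gene bodies alone, a replicate block and leaving out each library.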

Additional observations from a re-analysis of the deposited data

How the results depend on the processing

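At the intragenic NFYC promoter every alternative kept a lower value in SNDX-5613. In limma, 0 alternatives brought any member past an adjusted p of 0.05. The exact permutation and sign-flip tests could not reach 0.05 in any setting, so they say nothing on that threshold. Its rank difference was -10.6 to -3.22 points, its limma log2 difference -0.178 to -0.0237 and its width difference -351 to -99 bp when each library was left out in turn, with the smallest size each time without SNDX-5613 replicate 3 (limma -0.02, rank -3.22, width -99). The change in the number of peak regions was -5.67 to -1.17 when each library was left out, with -1.17 without SNDX-5613 replicate 3, and the 15 sites outside promoters became 10 with 5 kb flanks. Without normalisation the median of all sites moved by -0.27 on the log2 scale, and the log2 differences became -0.0362 at NFYA, -0.0794 at NFYB and -0.0431 at the first NFYC promoter. Ranked among all regions of a library, these 3 promoters differed by -0.741, -0.279 and -1.27 points. Leaving out each library gave rank differences of -0.205 to 2.85 at NFYB and -0.25 to 2.93 at the first NFYC promoter, and width differences of -74.3 to 6.67 bp and -77.8 to 12.7 bp, respectively. The cause of these reversals was not tested.

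The site downstream of NFYB had a log2 difference near 0, which became 0.251 with array weights, 0.257 for log2 of −log10 p, 0.164 for recovered pileups and -0.277 to 0.285 when each library was left out, while its rank difference became -3.47 by fold and -5.31 among all regions. The NFYB exon-intron site reached log2 differences of 0.0818 for log2 of −log10 p and 0.0426 for pileups, and rank differences of -6.17 by fold, -6.63 among all regions and -0.153 to 7.25 when each library was left out. The site downstream of NFYC reached 0.00929 with array weights, and -0.18 to 0.11 in log2 and -6.47 to 3.02 points in rank when each library was left out. At NFYB the number of regions did not differ with equal numbers of regions or at −log10 q of at least 3 (0 in both), and at NFYC it did not differ without SNDX-5613 replicate 3 (0). Of 265 alternative values, 30 reversed, 3 came to 0 and 232 were counted as the same. The 232 include the values with a replicate block, which equal the main values by design and could not reverse. They also include the number of sites outside promoters, which has no direction.

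With the replicate number as a replicate block, the rank difference at the intragenic NFYC promoter was -8.38 points (exact sign-flip p = 0.25, the smallest that 3 pairs allow) and limma called 4 sites of 33405, none at the NF-Y genes. Deviations of libraries that share a number correlated at -0.006, 0.015 and -0.014, so the numbers were not taken to pair the libraries. Limma called 186 sites with array weights and 115 for log2 of −log10 p, against 0 in the fit reported and 419 for pileups, and it called 10 with median scaling and 6 without SNDX-5613 replicate 3, with 0 members called in each. The depth of SNDX-5613 replicate 3 limits every statement about weak sites.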
